A study of Mus musculus with 6 samples.

Results

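Transcripts of the tricarboxylic acid (TCA) cycle enzymes and of the enzymes that feed it (anaplerosis) were examined in tumour-infiltrating terminally exhausted CD8+ T cells of mice given IL-10/Fc or buffer. The set is a list of gene names, with no measured value in its rule, and holds 31 genes. Of these, 29 were among the 15898 genes of the deposited counts and all 29 passed the filter on low counts. Me1 and Pcx were not analysed here. There were 2 libraries from mice injected with phosphate-buffered saline (PBS) beside the tumour and 4 from mice injected there with IL-10/Fc at 20 µg per injection, in which interleukin-10 is fused to an antibody Fc part. The cells of both groups were PMEL T cells with the Tg(TcraTcrb)8Rest transgene on the B6.Cg-Thy1a/Cy background. They carry a transgenic receptor for a melanoma antigen, so the receptor is the same in all libraries. Both groups of C57BL/6 hosts had been irradiated with 4 Gy and given naive Thy1.1+ PMEL cells intravenously. They were then inoculated with B16F10 melanoma cells, and on day 10 received activated Thy1.2+ PMEL cells and the first of 4 injections. On day 18 of the tumour, 500 Thy1.1+ CD8+ cells double positive for TIM-3 and PD-1 were sorted per library and amplified with Smart-Seq2. Whether the libraries stem from separate mice is not stated by the labels, and the p-values below therefore reflect library-to-library spread alone, possibly technical.

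The TCA cycle oxidises acetyl-CoA in the mitochondrial matrix: citrate synthase joins it to oxaloacetate, and the following steps release carbon dioxide and pass electrons to the respiratory chain until oxaloacetate is formed again. Intermediates drawn off for biosynthesis are replaced by anaplerosis, in T cells largely from glutamine, which becomes glutamate and then 2-oxoglutarate, and by exchange with aspartate. Several steps have a mitochondrial and a cytosolic enzyme from separate genes, and the pair moves reducing equivalents or carbon across the mitochondrial membrane.

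Libraries held 26738871 to 36941814 counts, at which 3 counts equal 0.0812 to 0.112 CPM (counts scaled to the same total in every library). Marker values in this paragraph are CPM scaled with the trimmed mean of M-values (TMM), described below. The sum of the 9 T cell and sort markers lay at 8813 and 11290 CPM in PBS and 14124 to 16091 CPM in IL-10/Fc. By library size only it lay at 9703 and 12007 CPM in PBS and 13886 to 15389 CPM in IL-10/Fc. All 9 markers examined were found, with a higher mean in IL-10/Fc for 8 of 9. Pdcd1, which encodes PD-1, was the exception. Cd4 and Foxp3 were not analysed here. Of 12 macrophage and monocyte markers 11 had a higher mean in IL-10/Fc. The exception was Lyz2, with a mean of 171 CPM in PBS and 134 CPM in IL-10/Fc. Sums of the 12 overlapped, at 159 and 399 CPM in PBS and 136 to 617 CPM in IL-10/Fc. Mrc1 had 0 counts in both PBS libraries. Of 7 measured dendritic cell and MHC class II markers 5 had a higher mean, with sums of 228 and 310 CPM against 172 to 1915 CPM. The 5 NK markers summed to 358 and 1200 CPM in PBS and 724 to 1740 CPM in IL-10/Fc, nearly all of it on Gzma, which CD8+ T cells also express, and 3 of 5 had a higher mean. The 4 melanoma markers summed to 0.645 and 6.34 CPM against 4.76 to 9.04 CPM, the 3 neutrophil markers to 1.31 and 1.80 CPM against 2.88 to 6.73 CPM, and the B cell marker Cd79b stood at 0 and 0.719 CPM against 1.74 to 6.56 CPM. Both groups of libraries were bulk samples, so fewer cells of a type and less RNA per cell cannot be told apart. The part of these markers in the values that follow was not tested.

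Before any adjustment for composition, the 29 genes took 0.464% and 0.462% of all counts in the PBS libraries; the IL-10/Fc libraries 1 to 4 had 0.361%, 0.400%, 0.405% and 0.384%, so the groups did not overlap. After scaling with the trimmed mean of M-values (TMM), which sets aside genes that differ strongly, the sums were 4210 and 4346 CPM in PBS and 3780, 4180, 4115 and 4041 CPM in IL-10/Fc. The groups still did not overlap; IL-10/Fc replicate 2 was nearest to PBS and replicate 1 farthest. The marker CPM above and all CPM given from here on are TMM-scaled.

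**Figure D1:**
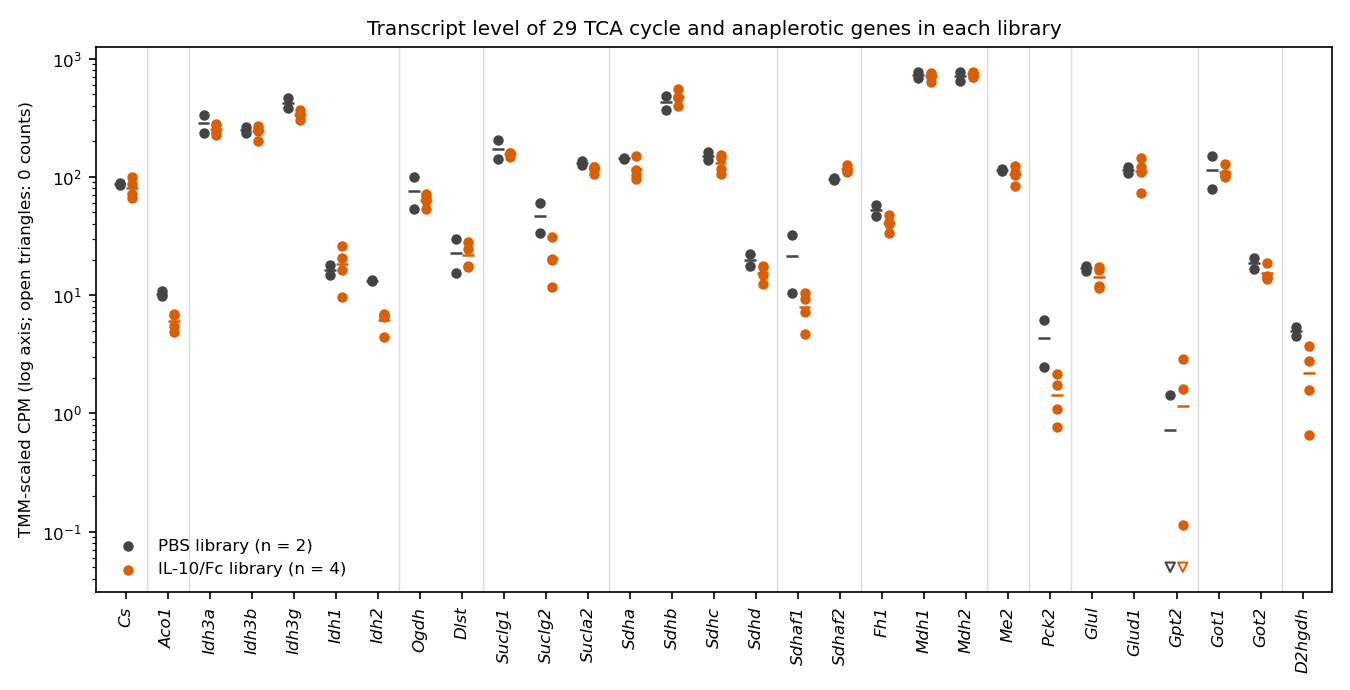
TMM-scaled CPM (log axis) of the 29 genes in each PBS (dark, n = 2) and IL-10/Fc (orange, n = 4) library, ordered by step of the cycle with grey lines between steps. Short lines are group means and open triangles mark libraries with 0 counts. The malate dehydrogenases Mdh1 and Mdh2 overlap between groups near 700 CPM, while Idh2 and Aco1 lie apart at lower levels. Suclg2 lies apart only just, with 33.3 CPM in PBS replicate 1 and 31.2 CPM in IL-10/Fc replicate 4.

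None of the 29 genes passed at 0.05 in edgeR's quasi-likelihood test, adjusted after Benjamini-Hochberg over all 15477 genes tested, with adjusted p from 0.231 to 0.984. In that test 1 gene passed, 0.00646% of all; the DESeq2 Wald test called 757, and without PBS replicate 2 edgeR called 16. The log2 fold change (IL-10/Fc over PBS) was below 0 for 24 of the 29 (82.8%), against 50.7% of all genes tested, and its median was -0.17 against -0.01 for all genes tested. At an unadjusted p under 0.05 there were 6 lower genes (20.7%, against 5.52% of all genes) and 1 higher gene (3.45%, against 7.20%). The lower ones were Idh2, Aco1, Suclg2, Sdhaf1, Idh3g and Pck2, and the higher one was Sdhaf2. Libraries of the 2 groups did not overlap for 9 of the 29 as lower genes (against 11.5% of all genes) and 1 higher gene (3.45%, against 12.1%). The members were not drawn at random and were counted with earlier results of these data known, so these shares are descriptions. The lower count was 9 with scaling by library size only, 2 without IL-10/Fc replicate 4 and 2 among genes with 20 CPM in 2 libraries, a filter that left 20 members and dropped Idh2, Aco1, Sdhaf1 and Pck2, and the higher count was 0 without any 1 library other than IL-10/Fc replicate 4. With scaling by library size only, the median of all genes was -0.18 and that of the members -0.34; libraries did not overlap for 14 lower members (48.3%, against 19.8% of all genes) and 1 higher (3.45%, against 7.24%).

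The authors' deposited table called Idh2 alone among the 29, as lower, by -1.10 on the log2 scale with an SE of 0.31 (adjusted p = 0.0124). The authors' deposited table called 1.72% of its genes lower and 3.57% higher. At an unadjusted p under 0.05 the authors' deposited table has 6 members lower (6.81% of all genes) and 1 higher (10.0%). The DESeq2 Wald test fitted here called Idh2 as well (adjusted p = 0.0285) and no other member, where 1.62% of all genes with an adjusted p were lower.

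Members were also divided by level, at a mean of 50 CPM chosen after their values were seen. The 16 members with a mean of 50 CPM or more showed a median of -0.11 on the log2 scale; 13 (81.2%) lay below 0, against 46.2% of all genes at that level, and 1 of them (6.25%) was lower at an unadjusted p under 0.05, against 9.37% of all genes at that level. Of the 13 members under 50 CPM, 11 (84.6%, against 51.8%) were below 0 with a median of -0.37, and 5 (38.5%) had an unadjusted p under 0.05 and lay lower, against 4.58% of all genes at that level. The low-level group holds Idh2, Aco1, Suclg2, Sdhaf1 and Pck2.

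**Figure D2:**
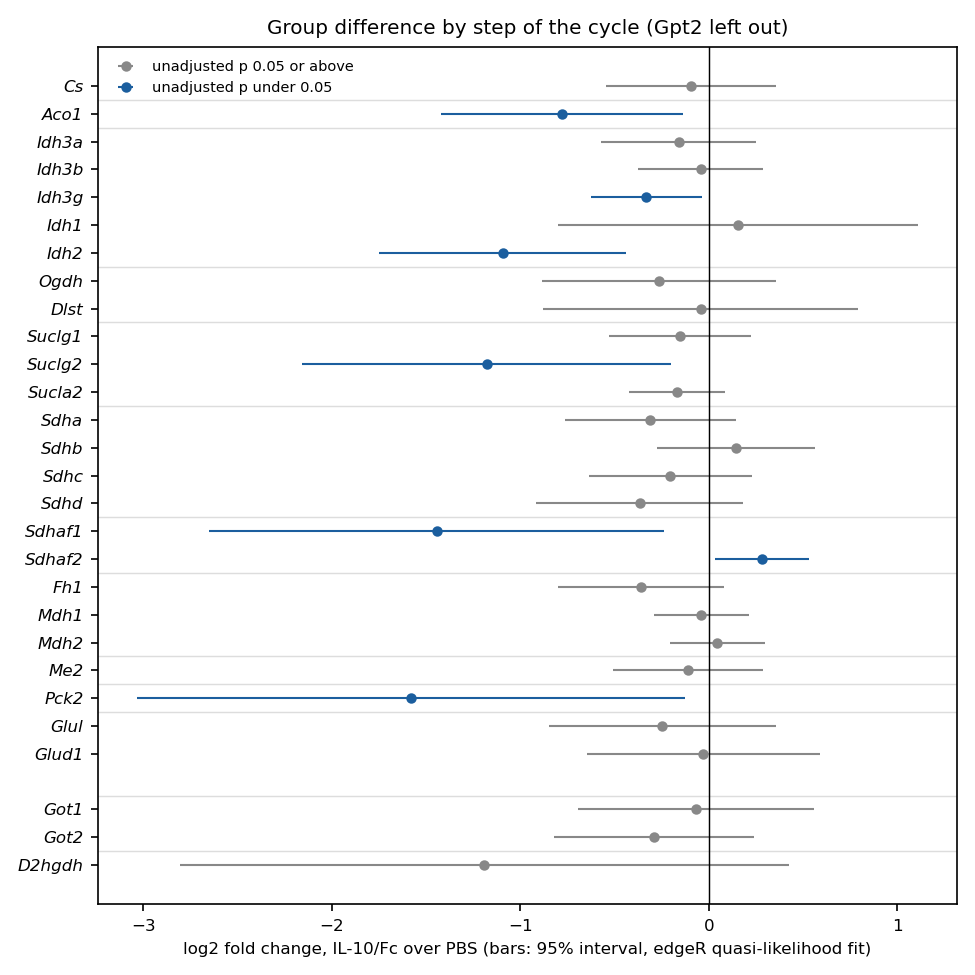
Log2 fold change of IL-10/Fc over PBS with its 95% interval from edgeR's quasi-likelihood fit, for 28 genes ordered by step; Gpt2 is left out because its interval runs from -4.74 to 6.09. Blue marks an unadjusted p under 0.05. Most points lie left of 0, and intervals are widest for genes of few counts such as Pck2 and D2hgdh.

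To let the low-level lower genes be seen beside their upstream sequence, the stretch before the transcription start is shown for Idh2, Suclg2 and Pck2. These are the genes with an unadjusted p under 0.05 that have 1 listed start in RefSeq (GRCm38.p6) and at least 150 bases outside annotated exons there. Sequences run 5′ to 3′ on the gene's strand, and capitals mark GGGCGG, the GC box of SP1 and KLF factors, and CCAAT, the NF-Y box, on either strand.
Idh2 (chr7:80115393-80115600, minus strand): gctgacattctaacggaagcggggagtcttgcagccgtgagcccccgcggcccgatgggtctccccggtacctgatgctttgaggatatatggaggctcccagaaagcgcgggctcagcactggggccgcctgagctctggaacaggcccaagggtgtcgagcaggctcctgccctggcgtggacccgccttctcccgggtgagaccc
Suclg2 (chr6:95718847-95719096, minus strand): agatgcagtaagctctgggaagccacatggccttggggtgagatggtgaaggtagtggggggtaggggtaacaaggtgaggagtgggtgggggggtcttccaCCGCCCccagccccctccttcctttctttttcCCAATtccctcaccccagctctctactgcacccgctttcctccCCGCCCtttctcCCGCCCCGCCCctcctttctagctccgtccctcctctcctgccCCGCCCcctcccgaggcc
Pck2 (chr14:55540016-55540265, plus strand): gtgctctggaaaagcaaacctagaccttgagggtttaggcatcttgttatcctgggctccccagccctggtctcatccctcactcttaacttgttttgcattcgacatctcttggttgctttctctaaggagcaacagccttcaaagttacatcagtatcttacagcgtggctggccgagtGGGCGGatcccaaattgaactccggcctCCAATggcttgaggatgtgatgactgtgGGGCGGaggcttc
The Suclg2 stretch is 64.4% G or C and holds 5 GC boxes, of which a pair overlaps by 1 base, and 1 CCAAT. The Pck2 stretch holds 2 GC boxes and 1 CCAAT, and the 208 bases shown for Idh2 hold neither; the matches of Idh2 in the 250-base count that follows lie outside them. Promoters were listed for 26 of the 29 genes. In the 250 bases before any listed start, GGGCGG was found in 19 of 26 (73.1%), against 35.4% of the 27025 genes with a listed promoter, and CCAAT in 14 of 26 (53.8%, against 37.5%). The STAT motif TTCNNNGAA was in 0 of 26 (8.13% of all genes), a palindromic NRF1 motif in 0 (0.877%), the E-box CACGTG in 1, Ogdh (6.86%), and AAGGTCA, a half-site of oestrogen-related and other nuclear receptors, in 1, Got1 (4.70%). The 27025 genes were not limited to genes measured in these cells, as the 26 were, so the shares compare unlike sets. These matches describe letters in this window and say nothing of binding.

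At the entry of the cycle, citrate synthase (Cs) stood at 85.6 and 88.0 CPM in PBS and 87.2, 66.3, 99.9 and 71.3 CPM in IL-10/Fc replicates 1 to 4. The IL-10/Fc libraries lay on both sides of the PBS pair, and the log2 fold change was -0.10 (95% interval -0.55 to 0.35). Aco1, the cytosolic aconitase that also serves as an iron-sensing RNA-binding protein, stood at 9.82 and 10.8 CPM in PBS and 4.86, 6.91, 6.77 and 5.47 CPM in IL-10/Fc. All IL-10/Fc libraries lay below both PBS libraries. Its log2 fold change was -0.78 (SE 0.27, unadjusted p = 0.0242, adjusted p = 0.329 by edgeR). It lies on chromosome 4 at 40143081 to 40198338 (GRCm38).

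Of the isocitrate dehydrogenases, which turn isocitrate into 2-oxoglutarate, the mitochondrial NADP-linked Idh2 (chromosome 7, 80094846 to 80115392, minus strand), whose upstream sequence is shown above, had the smallest p of the 29. It stood at 13.1 and 13.3 CPM in PBS and at 4.39, 6.59, 6.77 and 6.95 CPM in IL-10/Fc, from 385 and 407 counts with PBS against 131 to 244 counts with IL-10/Fc. The PBS pair agreed closely and lay about 2.13-fold above the IL-10/Fc mean. The log2 fold change was -1.09 (SE 0.27, 95% interval -1.75 to -0.44), with an unadjusted p of 0.00598 and an adjusted p of 0.231 by edgeR. Its p stayed under 0.05 without adjustment in all 13 alternative fits that tested it, and leaving out single libraries gave log2 fold changes from -1.16 to -0.96. In the fit restricted to genes with 20 CPM in 2 libraries it was not tested.

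Its cytosolic counterpart Idh1 stood at 17.9 and 14.8 CPM in PBS and 16.2, 9.73, 20.6 and 26.1 CPM in IL-10/Fc, so the groups overlapped (log2 fold change 0.15, 95% interval -0.80 to 1.11; under library-size scaling, -0.020). The NAD-linked enzyme, which carries the main flux of the cycle, is built of Idh3a, Idh3b and Idh3g. Idh3g, a regulatory subunit (chromosome X, 73778963 to 73786897), stood at 467 and 381 CPM in PBS and 304, 338, 368 and 337 CPM in IL-10/Fc. The groups did not overlap, but the gap of PBS replicate 2 to the nearest IL-10/Fc library was small against the gap within PBS. Its log2 fold change was -0.33 (SE 0.12, unadjusted p = 0.0328, adjusted p = 0.353 by edgeR), and -0.18 without PBS replicate 1. The catalytic Idh3a (log2 fold change -0.16, 95% interval -0.57 to 0.25) and the regulatory Idh3b (-0.04, 95% interval -0.37 to 0.29) overlapped between groups, and without PBS replicate 2 they stood at 0.12 and 0.05.

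The oxoglutarate dehydrogenase complex converts 2-oxoglutarate to succinyl-CoA. Its first component Ogdh stood at 53.9 and 99.1 CPM in PBS and 71.5, 53.3, 67.5 and 62.0 CPM in IL-10/Fc, inside the span of the PBS pair but for replicate 2, which was just below it. Dlst, the succinyltransferase core, stood at 29.8 and 15.5 CPM in PBS and at 28.3, 24.6, 17.2 and 17.7 CPM in IL-10/Fc, all inside the PBS span. The log2 fold changes were -0.27 (95% interval -0.89 to 0.35) for Ogdh and -0.04 (95% interval -0.88 to 0.79) for Dlst. Each turned with the PBS library left out: Ogdh was 0.24 without PBS replicate 2 and Dlst 0.50 without PBS replicate 1.

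Succinyl-CoA ligase forms succinate together with ATP or GTP, by pairing the shared subunit Suclg1 with Sucla2 or Suclg2. The GTP-forming Suclg2 (chromosome 6, 95473009 to 95718800, minus strand), whose upstream GC boxes are shown above, stood at 33.3 and 60.6 CPM in PBS and 11.8, 20.0, 20.0 and 31.2 CPM in IL-10/Fc. All IL-10/Fc libraries lay below both PBS libraries, replicate 4 only just. The log2 fold change was -1.18 (SE 0.41, unadjusted p = 0.0253, adjusted p = 0.334 by edgeR), and it was -0.68 without PBS replicate 2. The ATP-forming Sucla2 stood at 125 and 136 CPM in PBS and 106, 117, 120 and 121 CPM in IL-10/Fc, again without overlap but with a log2 fold change of -0.17 (95% interval -0.43 to 0.08), which was -0.11 without PBS replicate 2. Suclg1 overlapped between groups, at 204 and 142 CPM in PBS and 147 to 161 CPM in IL-10/Fc (log2 fold change -0.15, and 0.13 without PBS replicate 1).

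Succinate dehydrogenase, which is also complex II of the respiratory chain, has 4 subunits. Sdha, the flavin-bearing catalytic subunit, stood at 145 and 143 CPM in PBS and 104, 150, 96.5 and 115 CPM in IL-10/Fc; replicate 2 lay above PBS and the others below. The membrane anchor Sdhd stood at 22.2 and 17.7 CPM in PBS and 17.2, 12.3, 17.5 and 14.8 CPM in IL-10/Fc, below PBS by a narrow margin. Their log2 fold changes were -0.31 (95% interval -0.77 to 0.14) and -0.37 (95% interval -0.92 to 0.18); for Sdhd it was -0.20 without PBS replicate 1. The iron-sulphur subunit Sdhb and the anchor Sdhc overlapped between groups, with log2 fold changes of 0.14 (95% interval -0.28 to 0.56) and -0.20 (95% interval -0.64 to 0.23); for Sdhc it was -0.078 without PBS replicate 1. Sdhb stood at -0.031 under library-size scaling and at -0.044 without PBS replicate 2.

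The assembly factors of that enzyme lay on opposite sides. Sdhaf2 (chromosome 19, 10500513 to 10525209), needed to attach the flavin to Sdha, stood at 94.3 and 98.6 CPM in PBS and 117, 126, 115 and 111 CPM in IL-10/Fc. Every IL-10/Fc library lay above both PBS libraries, by a log2 fold change of 0.28 (SE 0.10, unadjusted p = 0.0317, adjusted p = 0.352 by edgeR); under library-size scaling the value was 0.11 (unadjusted p = 0.314). Sdhaf1, which helps insert iron-sulphur clusters into Sdhb, stood at 32.3 and 10.5 CPM in PBS and 4.66, 9.21, 10.3 and 7.24 CPM in IL-10/Fc. PBS replicate 1 was far above the other 5 libraries, and PBS replicate 2 was only just above IL-10/Fc replicate 3. Its log2 fold change of -1.44 (SE 0.50, unadjusted p = 0.0261, adjusted p = 0.337 by edgeR) was -0.42 without PBS replicate 1. In GENCODE M21, 69.6% of its exonic bases are shared with E130208F15Rik on the opposite strand. Smart-Seq2 does not mark strand, so reads from the shared bases cannot be told apart. E130208F15Rik was not among the genes of the deposited counts.

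Fumarase and the malate dehydrogenases close the cycle. Fh1 stood at 57.4 and 47.1 CPM in PBS and 33.4, 41.5, 47.8 and 40.1 CPM in IL-10/Fc, with replicate 3 alone reaching into the PBS span (log2 fold change -0.36, 95% interval -0.80 to 0.08, and -0.21 without PBS replicate 1). The mitochondrial Mdh2 stood at 651 and 775 CPM in PBS and 700, 774, 761 and 705 CPM in IL-10/Fc, all inside the PBS span. The cytosolic Mdh1 stood at 686 and 771 CPM in PBS and 637, 738, 758 and 700 CPM in IL-10/Fc, with replicate 1 alone below that span. The log2 fold change was 0.04 (95% interval -0.21 to 0.30) for Mdh2 and -0.04 (95% interval -0.29 to 0.21) for Mdh1. Under library-size scaling they stood at -0.12 and -0.21.

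Malic enzyme and phosphoenolpyruvate carboxykinase link the cycle to pyruvate and phosphoenolpyruvate. The mitochondrial malic enzyme Me2, which turns malate into pyruvate, stood at 116 and 112 CPM in PBS and 83.9, 103, 124 and 111 CPM in IL-10/Fc, with replicates on both sides of PBS. Pck2, the mitochondrial phosphoenolpyruvate carboxykinase (chromosome 14, 55540266 to 55550017), stood at 2.48 and 6.14 CPM in PBS and 1.74, 0.767, 2.16 and 1.08 CPM in IL-10/Fc. The groups did not overlap, but counts were few, 73 and 188 with PBS against 22 to 60 with IL-10/Fc. Its log2 fold change of -1.58 (SE 0.60, unadjusted p = 0.0371, adjusted p = 0.367 by edgeR) was -0.78 without PBS replicate 2.

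For glutamine and glutamate, Glud1, the dehydrogenase that converts glutamate to 2-oxoglutarate, stood at 121 and 107 CPM in PBS and 143, 120, 111 and 73.5 CPM in IL-10/Fc. Glul, which makes glutamine from glutamate, stood at 17.7 and 16.1 CPM in PBS and 17.3, 16.2, 12.0 and 11.4 CPM in IL-10/Fc. Both overlapped between groups; IL-10/Fc replicate 4 was the lowest library for each. Their log2 fold changes were -0.03 (95% interval -0.65 to 0.59) and -0.25 (95% interval -0.85 to 0.35). The mitochondrial alanine transaminase Gpt2 had 0 and 44 counts in PBS and 48, 83, 0 and 4 counts in IL-10/Fc, too few for a comparison.

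Glutamate also gives its amino group to oxaloacetate, which forms aspartate. The cytosolic transaminase Got1 stood at 79.2 and 151 CPM in PBS and 128, 106, 98.9 and 105 CPM in IL-10/Fc, all inside the PBS span. The mitochondrial Got2 stood at 20.6 and 16.7 CPM in PBS and 18.6, 14.5, 14.2 and 13.6 CPM in IL-10/Fc, with replicate 1 alone inside the PBS span. The log2 fold changes were -0.07 (95% interval -0.70 to 0.56) and -0.29 (95% interval -0.82 to 0.24); for Got1 it was -0.46 without PBS replicate 1 and 0.47 without PBS replicate 2, and for Got2 it was -0.13 without PBS replicate 1. D2hgdh, which oxidises D-2-hydroxyglutarate back to 2-oxoglutarate, stood at 5.40 and 4.54 CPM in PBS and 1.57, 3.70, 2.77 and 0.656 CPM in IL-10/Fc. The groups did not overlap, with a log2 fold change of -1.19 (95% interval -2.81 to 0.42, unadjusted p = 0.122, adjusted p = 0.520 by edgeR).

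The 5 enzyme pairs with both genes measured were compared by the ratio of their CPM within each library, which does not depend on scaling. The log2 ratio of Idh1 to Idh2 was 0.45 and 0.15 in PBS, and with IL-10/Fc it was 1.88, 0.56, 1.61 and 1.91. The groups did not overlap, with IL-10/Fc replicate 2 close to PBS, and the means differed by 1.19. The log2 ratio of Sucla2 to Suclg2 was 1.91 and 1.17 in PBS, and with IL-10/Fc it was 3.17, 2.55, 2.59 and 1.96, also without overlap, with means that differed by 1.03 (0.66 without PBS replicate 2). Both had p = 0.133 by an exact two-sided permutation test (adjusted p = 0.333 over the 5 pairs), the smallest that 2 against 4 libraries allow. The log2 ratio of Mdh1 to Mdh2 differed by -0.090 between groups, with overlapping libraries (exact permutation p = 0.267). Glud1 to Glul differed by 0.20 and Got1 to Got2 by 0.29, both with overlap (exact permutation p = 0.400 and 0.667). The log2 ratio of Got1 to Got2 was 1.94 and 3.17 in the PBS pair, a gap larger than the group difference.

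**Figure D3:**
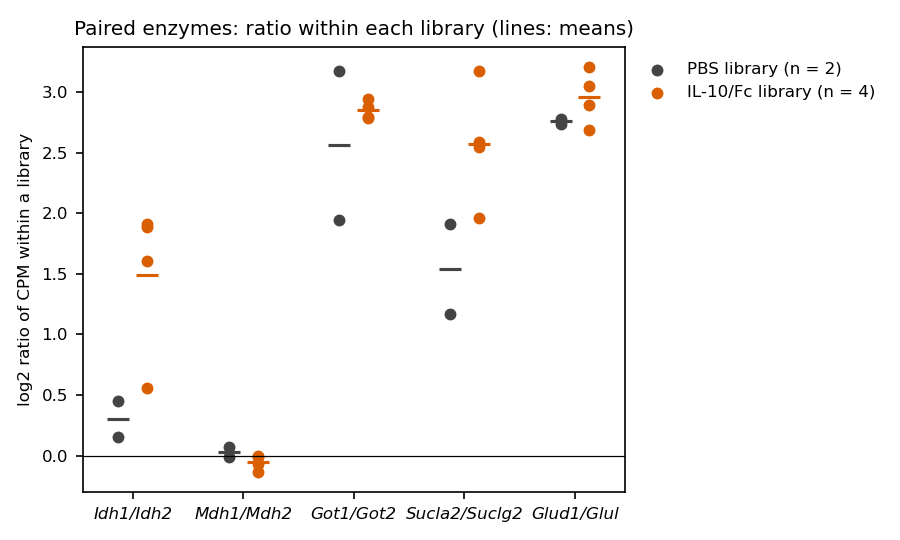
Log2 ratio of CPM of paired enzymes within each library, PBS dark (n = 2) and IL-10/Fc orange (n = 4), with group means as lines. All IL-10/Fc libraries lie above both PBS libraries for Idh1/Idh2 and Sucla2/Suclg2, and the groups overlap for the other pairs.

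Per kilobase of exon, levels spanned more than 3 orders of magnitude. The length is the union of exons over all annotated transcripts, 1231 bases for Sdhd and 9559 for Dlst. It can exceed the length of the transcripts present, so the order of genes is approximate. Mdh1 was highest, at 284 ± 23.5 CPM per kb (SD, n = 2) with PBS against 276 ± 20.7 (SD, n = 4) with IL-10/Fc, followed by Mdh2 and Sdhb. The subunits of the NAD-linked isocitrate dehydrogenase were unequal: Idh3g stood at 157 ± 22.6 CPM per kb in PBS and 125 ± 9.63 in IL-10/Fc, Idh3b at 73.0 ± 6.59 and 70.8 ± 8.23, and Idh3a at 56.4 ± 14.1 and 50.4 ± 5.09 (SD, n = 2 and n = 4). In succinate dehydrogenase Sdhb stood at 191 ± 37.6 and 211 ± 29.9 CPM per kb and Sdhd at 16.2 ± 2.59 and 12.6 ± 1.95. The library ranges of 26 of the 28 neighbours in this order overlapped; the exceptions were Mdh1 above Mdh2 and Idh3g above Idh3b. Idh2, Dlst and Aco1 ranked 24 to 26 of 29, and D2hgdh, Pck2 and Gpt2 last.

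**Figure D4:**
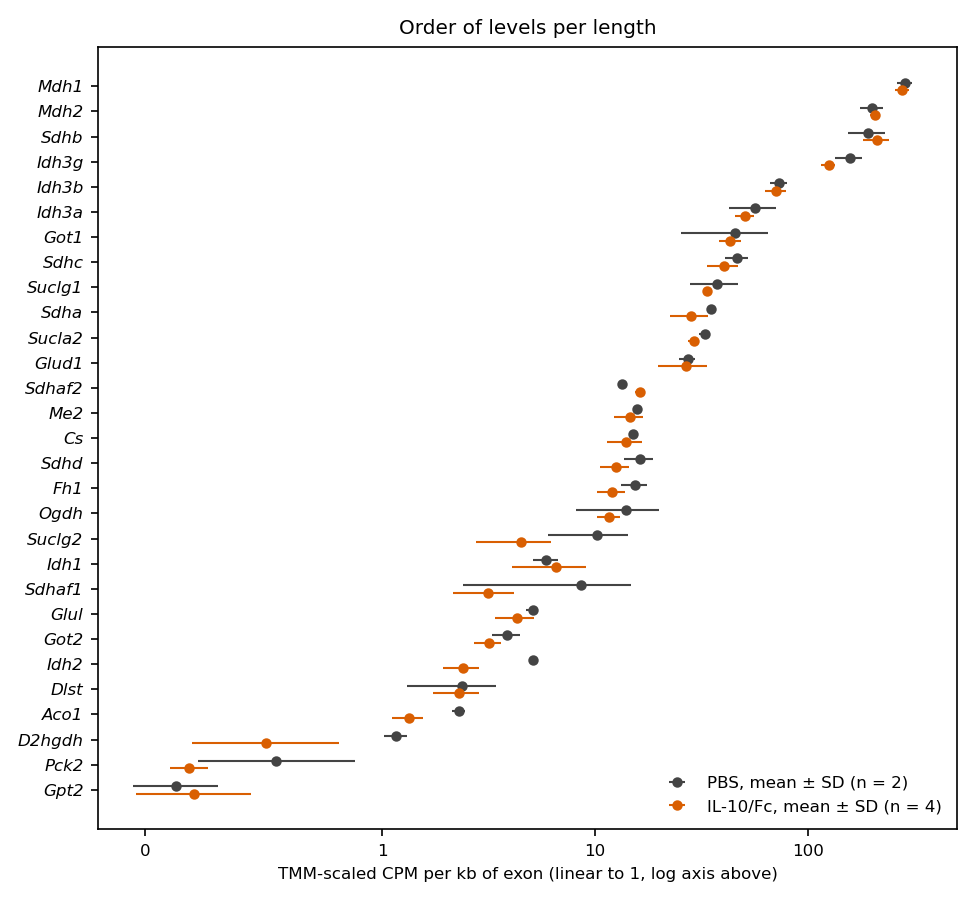
TMM-scaled CPM per kb of exon, mean ± SD, in PBS (dark, n = 2) and IL-10/Fc (orange, n = 4), ordered by the mean over the 6 libraries; the axis is linear up to 1 and logarithmic above. The order runs from Mdh1 at a mean of 278 CPM per kb down to Gpt2 at 0.179.

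The PBS libraries differed from each other by more than the groups did for 18 of the 29 genes. Leaving aside Gpt2, with 0 counts in PBS replicate 1, the gap was widest for Sdhaf1, 3.08-fold, followed by Pck2 (2.48-fold), Dlst (1.93-fold) and Got1 (1.90-fold). Idh2, at 1.02-fold, and Sdha, at 1.02-fold, had the closest PBS pairs.

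Other genes of the pathway were taken from a list of 36, of which 30 were measured. By edgeR none passed after adjustment over all genes; 19 (63.3%, against 50.7% of all genes) lay lower and 11 higher, with a median log2 fold change of -0.23 against -0.01 for all genes. Libraries did not overlap for 6 lower genes (20.0%, against 11.5% of all genes) and 1 higher gene (3.33%, against 12.1%). Pccb, a subunit of the propionyl-CoA carboxylase that feeds succinyl-CoA, and Asl, which releases fumarate in arginine synthesis, lay lower without overlap between groups, with log2 fold changes of -0.85 and -0.55 (adjusted p = 0.404 and 0.439 by edgeR). The 6 mitochondrial carriers of malate, citrate, aspartate and glutamate that were measured all overlapped between groups.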

How the data were processed

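RNA of 500 sorted T cells per library was amplified with Smart-Seq2, a poly(A)-primed protocol without strand information or molecular identifiers. The authors deposited whole-number counts per gene, with no normalization, and a table of their own comparison. Its log2 fold changes with standard errors, a score (the Wald statistic), p-values with adjusted p-values and a signal column (each gene's mean normalized count) were also deposited by the authors. The submitters' processing notes list DESeq2, Cuffdiff, Cufflinks 2.2.1, TopHat2 2.1.1, Bowtie2 2.2.9 and Trimmomatic, and the build GRCm38 (mm10); which tool counted reads is not stated there. Counts of the 6 single-library files equalled those of the series table for all 15898 genes. Columns of the table number the PBS libraries otherwise than the titles, and the titles were followed.

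Genes kept by edgeR's filterByExpr (15477) were scaled by TMM (factors 1.10 and 1.06 in PBS, 0.950 to 0.983 in the others) and tested with edgeR 4.0.16 (glmQLFit with the robust option, glmQLFTest, group as the sole term, two-sided), with Benjamini-Hochberg adjustment over all genes at 0.05. The SE is the log2 fold change over the root of F, and intervals use the fit's degrees of freedom. DESeq2 1.42.0 and limma 3.58.1 were alternatives. Exon lengths are unions over GENCODE M21 transcripts; its coordinates equalled those of the files for 85.6% of genes, all on GRCm38. Ratios were tested by exact permutation over libraries (scipy 1.17.1). The fits were tested on simulated data. In each step the 2 members with the smallest p, both genes of each pair and any member called in a fit or by the authors were given in full, the rest by range; other pathway genes were named by the 4 smallest p, of which 2 are not reported here. The members and lists were chosen with earlier results of these data known. Replicates of a group differed by more than counting noise (chi-square per degree of freedom 45.0 to 131), so each library counts once. Floors cover counting error only.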

Additional observations from a re-analysis of the deposited data

Results flagged for a closer look

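In the 4 IL-10/Fc libraries, Idh2 in replicate 1 (4.39 CPM) lay below the other three (6.59, 6.77 and 6.95 CPM); its gap took 0.859 of the group's range, above the critical value of 0.829 for 4 samples. This was 1 of 34 groups examined (29 genes and 5 ratios), and chance flags about 1 in 20. Without that library the log2 fold change of Idh2 was -0.96.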

How the results depend on the processing

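Of 397 values of single genes under the alternatives, 370 kept their direction and their side of the 0.05 threshold after adjustment, 1 passed it (Idh2 with the DESeq2 Wald test, -1.10) and 26 turned direction, over 12 genes; 17 genes never turned. The number of all genes called, 1, was 0 with scaling by library size only, 0 without the robust option, 60 among genes with 20 CPM in 2 libraries, 757 with the DESeq2 Wald test and 0 to 16 with single libraries left out (16 without PBS replicate 2). The members called, 0, became 1 with DESeq2. The 6 lower members with an unadjusted p under 0.05 became 9 with library size only and 7 with limma-voom. They became 2 at 20 CPM, where 20 members were tested and Idh2, Aco1, Sdhaf1 and Pck2 were not. With single IL-10/Fc libraries left out they became 2 to 5. The genes changed between these last fits, and Idh2 alone was among the lower ones in all of them. The 1 higher became 0 at 20 CPM, 0 with library size only and 0 to 1 with single IL-10/Fc libraries left out. Shares of all genes are not given for these counts. The median of -0.17 was -0.34 with library size only and -0.31 to -0.17 with single libraries left out. With library size only Idh1 stood at -0.020, Sdhb at -0.031 and Mdh2 at -0.12.

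With single libraries left out, the genes that turned ranged as follows: Idh3a -0.40 to 0.12, Idh3b -0.14 to 0.051, Idh1 -0.076 to 0.36, Ogdh -0.64 to 0.24, Dlst -0.44 to 0.50, Suclg1 -0.40 to 0.13, Sdhb -0.044 to 0.36, Mdh1 -0.12 to 0.047, Mdh2 -0.077 to 0.18, Glud1 -0.17 to 0.13, Gpt2 -0.33 to 8.13 and Got1 -0.46 to 0.47. Without turning, Cs ranged from -0.21 to -0.013, Me2 from -0.20 to -0.019 and Glul had -0.16 without IL-10/Fc replicate 4. The group difference in the log2 ratio of Got1 to Got2 ranged from -0.32 to 0.90. The cause was not tested. With 1 PBS library left, that library is assumed to vary like the others.

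The labels do not say whether the replicate numbers pair the samples, and IL-10/Fc replicates 3 and 4 have no PBS partner. Deviations from the group means correlated at 0.062 and 0.015 for same-numbered libraries, over 2 pairs. The deviations of 2 PBS libraries mirror each other, so these values cannot decide whether the numbers pair the samples. With the replicate number as a block, 0 genes were called, 2 members lay lower and 0 higher at an unadjusted p under 0.05, and Idh3b stood at 0.064, Idh1 at -0.37, Dlst at 0.29, Glud1 at 0.20 and Got1 at 0.097. Gpt2 had 0 counts in 2 of 6 libraries, and the cause was not tested.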
